A study of Mus musculus with 2 samples.

Results

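LHX6 intervals lay at the starts of 33 genes that encode the respiratory chain, its assembly factors or the mitochondrial ribosome. The genes were chosen by name and position: symbols beginning with Nduf, Sdha to Sdhd, Uqcr, Cox followed by a digit, Atp5, Mrpl or Mrps, with an LHX6 interval whose deposited distance to the gene start was at most 1000 bp. The 33 genes came from 177 protein-coding genes with such names in GENCODE M1, and they involved 33 of the 6566 LHX6 intervals and of the 2354 that lay at any gene start. Mrpl47 and Ndufb5 shared 1 interval, and Ndufa13 had 2. All 177 genes lay on chromosomes 1 to 19 and X, and thus in the nuclear genome.

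LHX6, a LIM homeodomain transcription factor, was mapped by ChIP-seq, the sequencing of DNA recovered with an antibody, in the maxillary arch, which forms the upper jaw. The LHX6 ChIP library was made with a polyclonal anti-LHX6 antibody from 20 µg of chromatin of maxillary arches of 47 embryos (CD-1, wild-type, E11.5), dissected and pooled, and an input library without antibody was made from the same kind of tissue. With 1 library in each group there was no replicate, so no value carries a replicate error and no test across samples was possible. The interval height is the highest density of 150 bp fragments in the interval, as the authors deposited it, and positions refer to NCBIM37, the mouse build also known as mm9.

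Input values were deposited for 6 intervals, and 0 of the LHX6 intervals at the 33 genes overlapped them. The sources used here do not give read totals, so the depth behind a height is unknown and a gene without an interval may lie below the limit of detection. Among marker genes, 5 of 10 maxillary mesenchyme genes had an LHX6 interval at the start (Msx1, Dlx1, Dlx2, Lhx6 and Lhx8), against 0 of 6 for epithelium, 0 of 5 for blood, 0 of 4 for endothelium, 0 of 4 for muscle and 1 of 4 for neurons (Tubb3). The share over all protein-coding genes was 11.0%, so 0 in lists of this size is near the background. At 2000 bp the mesenchyme count was 8 of 10, and by GENCODE transcript starts the muscle count was 1 of 4. These are counts of intervals and not of expression, and the part of other cell types in the pooled tissue was not tested.

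Oxidative phosphorylation couples the passage of electrons from NADH and succinate through complexes I to IV to proton pumping, and complex V, the ATP synthase, uses the resulting gradient to make ATP. Complexes I, III, IV and V combine subunits encoded in the nucleus with subunits encoded in mitochondrial DNA, whereas complex II is wholly nuclear. The mitoribosome translates the mitochondrially encoded subunits, and all of its proteins are imported products of nuclear genes. Most of these nuclear genes are active in nearly all cell types. Many of their promoters are CpG-rich and are known to be bound by NRF1, GABP, YY1 and SP1.

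The sequences before 7 of the gene starts are shown as examples of starts with and without the motifs reported further on. Each is the exon-free part of the 250 bases before the RefSeq start of the gene (promoter table of GRCm38.p6), located by exact match in NCBIM37 and printed 5′ to 3′ in the direction of the gene. Capitals mark every match, on either strand, to the motifs searched. Mrpl2, Mrpl32, Mrps12, Ndufa6 and Cox8a hold TGATTGG or its reverse complement, Atp5g2 holds the NRF1 motif, and Ndufv1 holds none of the motifs.
Mrpl2, chr17:46782920-46783169, plus strand: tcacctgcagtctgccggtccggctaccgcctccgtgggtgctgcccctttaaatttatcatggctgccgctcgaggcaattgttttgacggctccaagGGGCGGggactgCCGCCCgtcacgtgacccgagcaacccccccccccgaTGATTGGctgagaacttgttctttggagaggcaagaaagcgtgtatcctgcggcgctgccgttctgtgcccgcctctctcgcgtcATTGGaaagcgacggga
Mrpl32, chr13:14705305-14705520, minus strand: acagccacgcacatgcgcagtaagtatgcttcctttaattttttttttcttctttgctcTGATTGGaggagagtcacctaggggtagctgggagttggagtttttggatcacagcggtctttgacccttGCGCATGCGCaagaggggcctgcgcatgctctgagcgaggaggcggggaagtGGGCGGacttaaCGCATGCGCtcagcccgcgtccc
Mrps12, chr7:29526841-29527009, minus strand: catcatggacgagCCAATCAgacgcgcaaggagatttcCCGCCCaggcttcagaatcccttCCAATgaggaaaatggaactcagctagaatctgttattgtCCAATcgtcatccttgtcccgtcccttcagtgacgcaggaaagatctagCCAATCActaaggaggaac
Ndufa6, chr15:82184722-82184971, minus strand: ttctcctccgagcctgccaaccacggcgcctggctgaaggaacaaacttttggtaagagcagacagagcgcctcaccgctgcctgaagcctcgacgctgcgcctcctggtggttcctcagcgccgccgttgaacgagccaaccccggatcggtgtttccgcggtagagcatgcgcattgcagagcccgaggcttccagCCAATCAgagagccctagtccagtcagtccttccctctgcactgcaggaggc
Cox8a, chr19:7292107-7292356, minus strand: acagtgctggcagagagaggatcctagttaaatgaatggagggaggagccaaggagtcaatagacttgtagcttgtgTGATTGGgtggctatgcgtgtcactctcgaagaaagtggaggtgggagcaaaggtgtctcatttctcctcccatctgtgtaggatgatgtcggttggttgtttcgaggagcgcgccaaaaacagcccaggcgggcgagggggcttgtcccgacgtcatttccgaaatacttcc
Atp5g2, chr15:102501479-102501728, minus strand: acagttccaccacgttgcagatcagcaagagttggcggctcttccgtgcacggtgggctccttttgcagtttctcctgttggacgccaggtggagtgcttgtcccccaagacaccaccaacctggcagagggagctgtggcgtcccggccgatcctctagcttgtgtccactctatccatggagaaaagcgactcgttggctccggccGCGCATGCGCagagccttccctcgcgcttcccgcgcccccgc
Ndufv1, chr19:4012807-4013005, minus strand: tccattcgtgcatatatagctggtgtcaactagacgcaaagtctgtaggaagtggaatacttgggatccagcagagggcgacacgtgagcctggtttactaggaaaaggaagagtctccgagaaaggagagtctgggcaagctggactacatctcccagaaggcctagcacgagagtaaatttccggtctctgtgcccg

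The tallest interval of the group lay at Mrpl2, which encodes a protein of the large mitoribosomal subunit (chr17:46782473-46783705). Its height of 40 was above that of 96.3% of the LHX6 intervals at gene starts. Next came the interval of height 36 upstream of Ndufa13, which encodes an accessory subunit of complex I (chr8:72426808-72427698), and that of height 33 at Mrpl18 (chr17:13108555-13110097). The lowest was at Atp5j2, which encodes a small membrane subunit of the ATP synthase (chr5:145951391-145952321), with a height of 13. It was higher than only 0.68% of the intervals at gene starts, and it was the only 1 of the 33 that overlapped no CpG island.

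As a group the intervals had ordinary heights for gene starts. The median height was 21 (interquartile range 18 to 26) for the 33 intervals, and also 21 (18 to 26) for the other 2321 LHX6 intervals at gene starts. The range was 13 to 40 in the group and 10 to 297 in the others. Median mean density, the average over the interval, was 10.5 in the group against 10.6 in the others, and median length was 952 bp in the group against 1020 bp in the others. A CpG island was overlapped by 32 of the 33 (97%, exact Clopper-Pearson 95% interval 84.2 to 99.9) and by 92.5% (91.3 to 93.5) of the others. The group thus did not stand apart from other gene starts in any of these deposited values, and intervals away from gene starts had a median height of 23 and overlapped a CpG island in 13.1%. All confidence intervals cover counting error only.

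**Figure D1:**
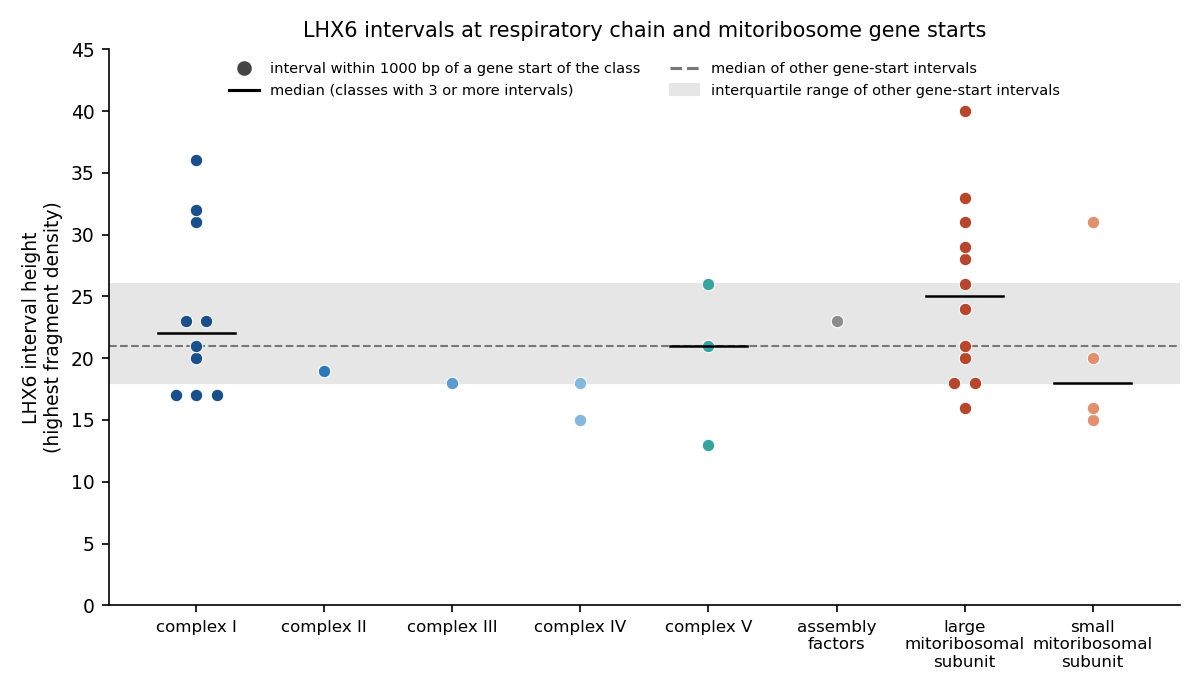
Height of each LHX6 interval within 1000 bp of a listed gene start, by class of the encoded protein (points, with black lines for the medians of classes with 3 or more intervals), with the median and interquartile range of the other gene-start intervals in grey. The heights run from 13 to 40 around the grey median of 21; the interval shared by Ndufb5 and Mrpl47 is drawn in both classes.

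Complex I, the NADH dehydrogenase, had the most respiratory chain genes with an interval, 9 of 38. Of its core subunits, Ndufv1, the flavoprotein that binds NADH, had an interval of height 21 at its start (chr19:4012235-4013177) and Ndufs1, the largest iron-sulfur subunit, had 1 of height 17 (chr1:63222985-63224080). The other 7 genes encode accessory subunits, which stabilise the complex around its catalytic core. The tallest of these after Ndufa13 were at Ndufa10 (height 32, chr1:94369894-94370760) and at Ndufb5 (height 31, chr3:32635360-32636379). Ndufa2 and Ndufa6 had heights of 23 each, Ndufa7 had 20 and Ndufb9 had 17. Core and accessory genes thus overlapped in height, and the 10 intervals of the complex had a median of 22.

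Ndufa13 was the only gene with 2 intervals within the limit, and neither summit lay on its start. The interval of height 36 had its summit at -759 bp, upstream of the start, and the other, of height 17 (chr8:72425081-72426033), at 825 bp, inside the gene. The second lay at the start of Tssk6, a testis-specific kinase gene. These were the members nearest to the distance limit, followed by Mrps18b at -670 bp. Just outside the limit were a second interval of Mrps18b at 1.68 kb (height 19), 1 of Ndufa4l2 at 2.78 kb (height 16, chr10:126948598-126949500) and 1 of Atp5d at 3.25 kb (height 14, chr10:79601300-79602243), all upstream by the deposited distance. The last depended on the annotation: its summit lay 479 bp inside Atp5d from the GENCODE start, and by GENCODE starts complex V had an interval at 4 of 15 genes (26.7%, 7.79 to 55.1) and the listed genes at 34 of 177 (19.2%).

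The remaining complexes had few genes with an interval, and most of these intervals were low. In complex II, 1 of 4 genes had 1, Sdhb, which encodes the iron-sulfur subunit (height 19, chr4:140516532-140517738). In complex III, 1 of 8 had 1, Uqcrq, a small subunit of the cytochrome bc1 complex (height 18, chr11:53243854-53244709). In complex IV, cytochrome c oxidase, 2 of 17 had 1, Cox8a (height 18, chr19:7291680-7292631) and Cox5a (height 15, chr9:57368516-57369354). None of these 4 intervals reached 22, the median height of all LHX6 intervals.

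In complex V, 3 of 15 genes had an interval. Atp5g2, 1 of several genes for the c subunit of the rotor ring, had a height of 26 (chr15:102500772-102502485), and its interval overlapped 2 CpG islands. Atp5a1, the alpha subunit of the catalytic head, had a height of 21 (chr18:78012393-78013227), and Atp5j2 had 13. Among assembly factors, which help build the complexes without staying in them, 1 of 16 had an interval: Cox18, which inserts part of a mitochondrially encoded subunit of complex IV into the inner membrane (height 23, chr5:90652680-90653576). None of the 3 further names taken by the rule, Cox4nb, Atp5l-ps1 and Mrps36-ps1, had an interval at the start.

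The large mitoribosomal subunit had an interval at 12 of 47 genes, and these had a median height of 25, the highest of the 8 classes. After Mrpl2 and Mrpl18 the highest were Mrpl47 (height 31, shared with Ndufb5), Mrpl48 (height 29, chr7:107755180-107756649) and Mrpl49 (height 28, chr19:6057345-6058481). Mrpl17 had a height of 26, Mrpl32 of 24, Mrpl4 of 21 and Mrpl52 of 20. The lowest were Mrpl13 and Mrpl33, with 18 each, and Mrpl23, with 16. In all, 7 of the 12 intervals reached the median of all LHX6 intervals, whereas 5 of 10 did in complex I.

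The small mitoribosomal subunit had an interval at 4 of 29 genes. Mrps18b had the highest (height 31, chr17:36052910-36054466), but the summit of this interval lay nearer to the start of Ppp1r10, a phosphatase regulator gene, than to its own start. Mrps35 had a height of 20 (chr6:146990656-146991755), Mrps12, whose product belongs to the decoding centre, had 16 (chr7:29526570-29527427), and Mrps18a had 15 (chr17:46247557-46248317). The median of these 4 was 18.

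Respiratory chain and mitoribosome genes had intervals at their starts about equally often. By the deposited distance and the limit of 1000 bp, both shares lay above that of all protein-coding genes. The share was 19.5% (16 of 82, 11.6 to 29.7) for the subunits of complexes I to V and 21.1% (16 of 76, 12.5 to 31.9) for the mitoribosome. Over all 177 listed genes it was 18.6% (13.2 to 25.2), beside the background of 11.0% of all 22238 protein-coding genes (2436 genes). By class the share was 23.7% (11.4 to 40.2) for complex I, 25% (0.631 to 80.6) for complex II, 12.5% (0.316 to 52.7) for complex III, 11.8% (1.46 to 36.4) for complex IV and 20% (4.33 to 48.1) for complex V. It was 6.25% (0.158 to 30.2) for assembly factors, 25.5% (13.9 to 40.3) for the large and 13.8% (3.89 to 31.7) for the small mitoribosomal subunit. The confidence intervals of all 8 classes overlapped each other, so no order among the classes could be read at these numbers. The confidence interval of the large mitoribosomal subunit lay above the background, that of complex I began at the upper limit of the background (10.5 to 11.4), and the others included it.

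The distance from the background depended on how intervals were assigned to genes. With only the intervals that the authors assigned to a single gene, the share was 2.82% of the listed genes against 4.87% of all protein-coding genes, so the direction turned round, but the confidence interval of the listed genes (0.923 to 6.47) included the share of all genes. The 5 genes that remained were Cox5a, Mrpl4, Mrpl17, Mrpl23 and Mrps18a. With only the intervals at or above the median height, the share was 8.47% of the listed genes (4.82 to 13.6) and 5.33% of all protein-coding genes, which the confidence interval also included. By GENCODE transcript starts the background was 12.9%. This lay within the confidence intervals of the respiratory chain (12.6 to 31.1) and the mitoribosome (12.5 to 31.9), but below that of all listed genes (13.7 to 25.8).

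**Figure D2:**
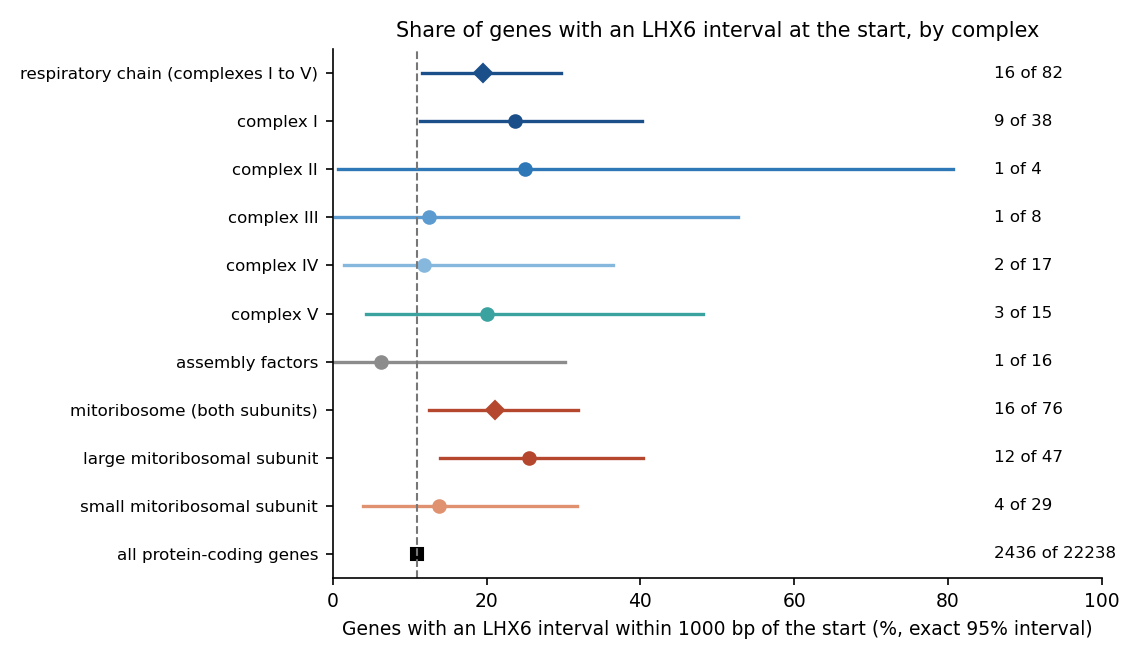
Percentage of genes with an LHX6 interval within 1000 bp of the start for each class (points; diamonds for the pooled respiratory chain and mitoribosome) with exact 95% intervals, and for all protein-coding genes (square and dashed line at 11.0%). Of the 8 classes, complex I and the large mitoribosomal subunit lie above the dashed line with their whole intervals, complex I only just, and all 8 class intervals overlap each other.

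The listed genes more often had CpG-rich starts than other genes did, and among CpG-rich starts their share was near the background. A start was counted as CpG-rich where the 500 bases on each side had at least 55% G and C and an observed over expected CpG ratio of at least 0.6. This held for 96 of the 177 listed genes (54.2%, 46.6 to 61.7) and for 38.5% of all protein-coding genes. Of the listed genes with a CpG-rich start, 24 of 96 had an interval (25%, 16.7 to 34.9), beside 21.2% of all protein-coding genes with such a start. Of the 81 with a CpG-poor start, 9 had an interval (11.1%, 5.21 to 20), beside 4.57%. The class was read at the annotated start of the gene, and for Mrpl33 the interval lay 17.1 kb from it, at another transcript start. Without Mrpl33 the count was 8 of 81 (9.88%, 4.36 to 18.5). With the same condition set for all genes, that the summit lie within 1000 bp of the start that was read, the background was 3.64%. That value lay just below the confidence interval of 4.36 to 18.5. Without the condition on either side, 4.57% lay just below the confidence interval of 5.21 to 20. Both margins were small, and they rested on 9 genes or fewer. For 8 of the 9 genes, Mrpl33 among them, the deposited interval overlapped a CpG island, and Atp5j2 was the exception. CpG content thus moved with the presence of an interval, and its part in the shares was not tested further.

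Divergent starts were also common in the group. A protein-coding gene on the opposite strand began within 1000 bp upstream at 41 of the 177 listed starts (23.2%, 17.2 to 30.1), against 7.14% of all protein-coding starts. Within divergent starts an interval was present for 9 of 41 listed genes (22%, 10.6 to 37.6) and for 24.2% (22.2 to 26.4) of all. Where the start was not divergent, they were 24 of 136 (17.6%, 11.6 to 25.1) beside 9.93%, which lay below the confidence interval. Genes on opposite strands whose starts overlap, such as Ndufb5 and Mrpl47, were counted as not divergent. The class of starts that were not divergent thus still held genes that shared their interval with another start, Mrpl13, Mrpl18 and Mrpl48 among them. Where the start was divergent and CpG-rich, the values were 7 of 32 (21.9%, 9.28 to 40) beside 25.2%. For CpG-rich starts that were not divergent they were 17 of 64 (26.6%, 16.3 to 39.1) beside 20.5%. The backgrounds of both CpG-rich classes lay within the confidence intervals of the listed genes.

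**Figure D3:**
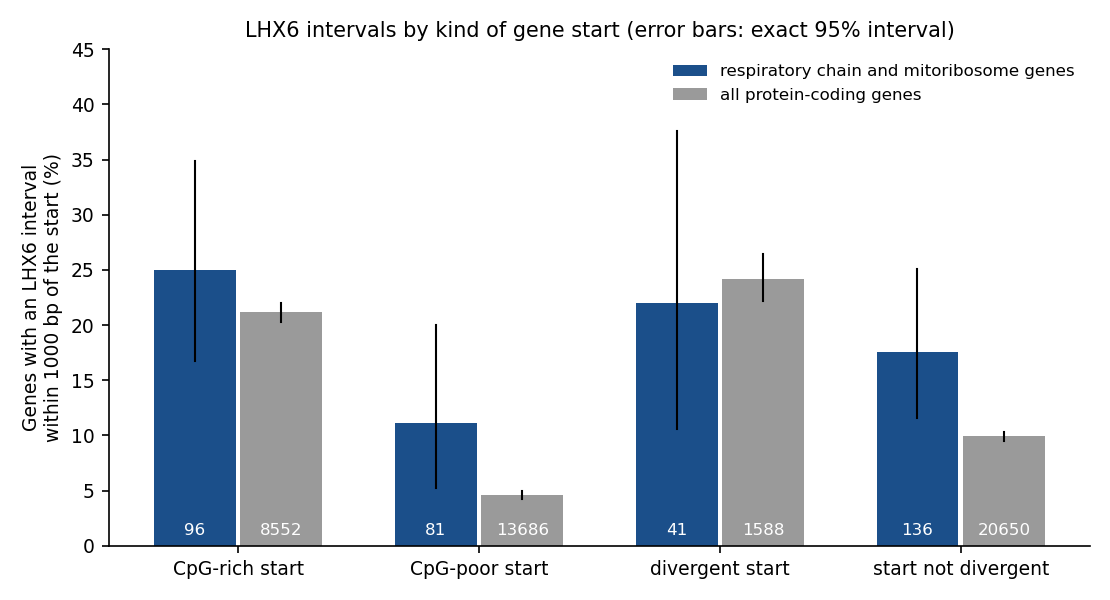
Percentage of genes with an LHX6 interval within 1000 bp of the start, for the listed genes (blue) and all protein-coding genes (grey), by CpG content and by presence of a divergent neighbour, with exact 95% intervals and the number of genes in white. The bars are close for CpG-rich starts (25% and 21.2%) and divergent starts (22% and 24.2%), and farther apart for CpG-poor starts (11.1% and 4.57%), where 1 of the 9 listed genes has its interval at another start.

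Many of the intervals could not be assigned to a listed gene alone. Counted over genes, 14 of the 33 (42.4%, 25.5 to 60.8) shared their interval with the start of another gene within 1000 bp. Of the other genes with an interval at the start, 25.8% (24.1 to 27.5) did, a share just within the confidence interval of the 33. The share was 6 of 16 for the respiratory chain and 8 of 16 for the mitoribosome. The neighbours included genes of cytosolic protein production and turnover: Rps28, a cytosolic ribosomal protein gene, beside Ndufa7, Fau, whose product is processed to a cytosolic ribosomal protein, beside Mrpl49, Tcp1, a chaperonin subunit gene, beside Mrpl18, and Psma2, a proteasome subunit gene, beside Mrpl32. Sars2, the mitochondrial seryl-tRNA synthetase gene, shared the interval of Mrps12, so this interval lay at the starts of a pair of mitochondrial translation genes. Ndufb5 and Mrpl47 shared theirs with each other, Ndufa13 and Mrps18b shared theirs with the neighbours given above, and Atp5g2 shared its own with a microRNA gene. Ik shared that of Ndufa2, Tatdn1 that of Ndufb9, Mtbp that of Mrpl13, and Rab6, a vesicle transport gene, that of Mrpl48. ChIP fragments carry no strand of the gene they lie at, so such an interval cannot be assigned to 1 of the starts.

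Distance to the start had chosen the genes, so the positions of the summits are given as a description. Of the 34 pairs of gene and interval, 20 had the summit within 100 bp and 29 within 200 bp of the nearest GENCODE transcript start of the gene, with a median distance of 58 bp. Of 2444 such pairs of other genes, 46.2% lay within 100 bp and 68.7% within 200 bp, with a median of 111 bp. The closest were Mrpl2 at 1 bp, Ndufs1 at 4 bp and Mrps18a at 7 bp inside the gene. The authors placed 21 summits upstream of the start and 13 inside the gene. Beyond 200 bp lay only the pair at Ndufa13 and the intervals of Mrps18b (-650 bp, upstream), Mrpl23 (491 bp inside) and Atp5j2 (348 bp inside).

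**Figure D4:**
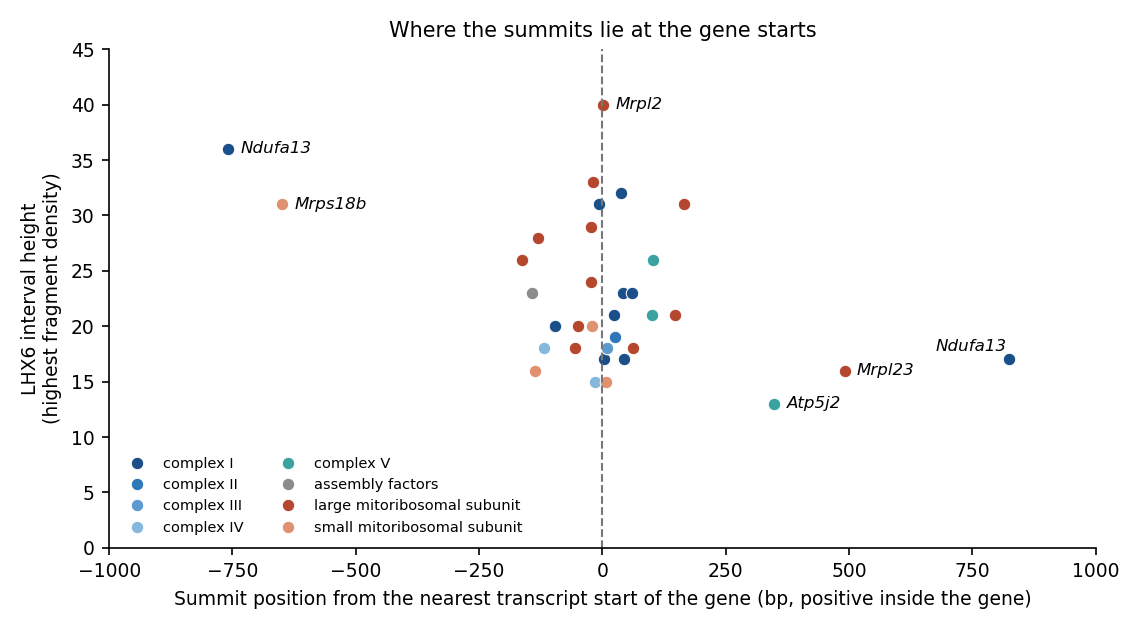
Position of each LHX6 summit from the nearest transcript start of its gene (horizontal axis, bp, positive inside the gene) and interval height (vertical axis), coloured by class. Most points lie within 200 bp of the start, and the genes named in the plot lie apart from the rest or, in the case of Mrpl2, are the tallest.

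The LIM homeodomain core motif TAATTA was not found at the summits of these intervals. TGATTG and TGATTA were searched as well because they were known to be frequent at LHX6 summits away from gene starts, so their shares there are given as a description. Within 100 bp of the 33 summits, TAATTA and TGATTA occurred in 0 windows each (upper limit 10.6%), beside 1.87% and 4.89% of all gene-start summits and 12.6% and 33% of summits away from gene starts. TGATTG occurred in 5 of 33 (15.2%, 5.11 to 31.9), beside 22.6% of all gene-start summits and 37.7% of the summits elsewhere. The 5 windows were those of Cox8a, Mrpl18, Mrps12, Ndufa2 and the taller interval of Ndufa13. The confidence interval of the group included the share at gene starts for all 3 motifs. For TAATTA it lay below the share away from gene starts. TGATTG and TGATTA were chosen for being frequent there, so no contrast is drawn for them.

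TGATTG in the group was mostly followed by G, which makes it the reverse complement of CCAATCA and so overlaps the CCAAT motif of NF-Y. This was so for 4 of the 5 summit windows with TGATTG, for 71.1% (67 to 74.9) of such windows at all gene starts, and for 32.1% (29.8 to 34.5) of those away from gene starts. In windows from 250 bases before to 50 after the GENCODE start, TGATTG was present at 8 of the 33 genes with an interval (24.2%, 11.1 to 42.3) and at 15 of the 144 listed genes without (10.4%, 5.95 to 16.6), beside 14.2% of all protein-coding starts and 23.1% of those with an interval. At least 1 TGATTG followed by G was present in 7 of the 8, all but Mrps18b, as printed above for Mrpl2, Mrpl32 and Cox8a and, on the other strand, for Mrps12 and Ndufa6. This share (87.5%, 47.3 to 99.7) was near that of other start windows with TGATTG. It was 80% at listed genes without an interval, 76.7% at all starts with an interval and 60.2% at all protein-coding starts. The 8 windows held 10 occurrences of TGATTG, of which 8 were followed by G; Sdhb held 1 followed by A besides 1 followed by G on the other strand. The start windows of Mrpl33, Atp5j2, Mrpl23, Mrpl48 and Ndufa13 lay outside their LHX6 intervals. Motif matches counted in start windows for these genes thus describe sequence outside the interval. In the same windows TAATTA was present at 2 of the 33 genes, Atp5a1 and Atp5j2 (6.06%), and at 4 of the 144 without an interval (2.78%), beside 4.86% of all starts. The base after TGATTG was looked at only after the motif counts were known.

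Motifs known from nuclear genes for mitochondria were present in the group, with or without an interval. The NRF1 motif GCGCNTGCG occurred in the start windows of 6 of 33 genes with an interval (18.2%, 6.98 to 35.5) and of 32 of 144 without (22.2%, 15.7 to 29.9), beside 8.15% of all protein-coding starts. The 6 were Atp5g2, Cox18, Mrpl17, Mrpl32, Ndufa13 and Ndufa6. The YY1 motif AAGATGGCG occurred in 2 of 33 (6.06%) and 12 of 144 (8.33%), beside 1.83%. Of all starts with an interval, 15.4% held the NRF1 motif and 3.24% the YY1 motif. For both motifs the genes with and without an interval overlapped widely, and over all 177 listed genes the shares of 21.5% (15.7 to 28.3) and 7.91% (4.39 to 12.9) lay above those of all starts. Listed starts were more often CpG-rich than all starts, and these motif shares were not matched for CpG content.

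The ETS motif CCGGAAGT, which GABP binds, occurred in 6 of 33 (18.2%, 6.98 to 35.5) with an interval and 13 of 144 (9.03%, 4.89 to 14.9) without. The share was 4.71% of all starts and 8.21% of starts with an interval, the latter within 6.98 to 35.5. The 6 genes with the motif were Cox8a, Mrpl18, Mrpl52, Mrps35, Ndufs1 and Uqcrq. The SP motif GGGCGG occurred in 21 of 33 (63.6%, 45.1 to 79.6) and 63 of 144 (43.8%, 35.5 to 52.3), beside 43.4% of all starts and 67.7% of starts with an interval. CCAAT occurred in 9 of 33 (27.3%) and 59 of 144 (41%), beside 38%. The CREB motif TGACGTCA occurred in 2 of 33, Mrpl49 and Ndufa10 (6.06%, 0.743 to 20.2), and in 4 of 144 (2.78%), beside 2.32% of all starts. CTACAATTC, part of the ZNF143 motif, occurred in 0 of 33 and 1 of 144, beside 0.432%. Both counts in the genes with an interval were near the background. Motifs were searched on both strands, and a match describes the sequence only.

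Isoforms that are restricted to certain tissues were compared with their broadly expressed counterparts. Cox4i2, Cox6a2, Cox6b2, Cox7a1, Cox7b2, Cox8b, Cox8c and Ndufa4l2, which replace broadly expressed subunits in tissues such as muscle, testis or lung or under low oxygen, had an interval at the start in 0 of 8 cases (upper limit 36.9%). All 8 starts were CpG-poor, and 0 of 8 is near the background of 4.57% for such starts. Of the 7 broadly expressed counterparts only Cox8a had an interval at the start (14.3%, 0.361 to 57.9). Cox6a1 had 1 of height 26 that lay 7.76 kb downstream of its start, at the start of Triap1. The confidence intervals overlapped, so no difference could be read from these counts.

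Beyond the distance limit, 17 further listed genes had only intervals farther away, and 127 of the 177 had no interval assigned. Of the 28 pairs of gene and interval beyond 1000 bp, 16 lay at the start of another gene and 24 overlapped a CpG island. Examples are the interval of height 49 assigned to Uqcr, now Uqcr11, which lay at the start of the chromatin gene Mbd3, and that of height 34 assigned to Mrpl35, which lay at the start of Immt, a gene for a mitochondrial inner membrane protein. The tallest lay in an intron of Cox10, the heme A synthesis gene of complex IV assembly, 54.8 kb inside the gene (height 60, chr11:63837635-63838748). Another lay 8.49 kb inside Mrps27 (height 43, chr13:100122860-100123673). Neither of these overlapped a CpG island, and both held TGATTG within 100 bp of the summit.

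Other genes of mitochondrial gene expression and respiratory chain assembly had an interval at the start in 12 of 65 cases (18.5%, 9.92 to 30). Both the background of 11.0% and the 18.6% of the listed genes lay within that confidence interval. Among the 12 was Sars2, whose interval was also counted at Mrps12. Genes for transcription and replication of mitochondrial DNA had 4 of 9: Polg, the DNA polymerase gene (height 30), Tfam, the packaging and transcription factor gene (height 22), Ssbp1, the single-stranded DNA binding protein gene (height 19), and Tfb1m, an rRNA methyltransferase gene (height 18). Assembly genes with other names had 4 of 19, among them Atpaf2 of complex V (height 35) and Foxred1 of complex I (height 24), with lower intervals at Uqcc of complex III (height 16) and at Timmdc1 of complex I, listed as 4930455C21Rik (height 15). Mitoribosomal proteins and translation factors with other names had 1 of 18, Dap3 (height 16), and the genes of cytochrome c and cytochrome c1 had 0 of 2. The confidence intervals of these small groups are wide, from 13.7 to 78.8 for 4 of 9.

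Of 12 nuclear regulators of mitochondrial genes, 4 had an interval at the start (33.3%, 9.92 to 65.1), beside 11.0% of all protein-coding genes, which lay within the confidence interval. These were Gabpb2 and Gabpb1, which encode partners of GABPA (heights 30 and 16), Sp1 (height 29) and Nrf1 (height 18). Nrf1 had 2 more intervals inside the gene, with heights of 32 and 19, at 99.2 kb and 35.4 kb from the start.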

How the data were processed

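The analysis used the intervals of 1 LHX6 ChIP library and 1 input library. For the authors, a commercial service aligned reads to mm9 with BWA and extended them to 150 bp fragments, per the labels' protocols, and MACS is named without a version per the submitters' processing notes. The signal values are the highest and mean fragment density of each interval, as deposited, with no statement of scaling between the libraries. The calling threshold is not given in the sources used here. No value below the calling threshold is listed, so a gene without an interval has no measurement.

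Genes were matched by symbol to GENCODE M1 on NCBIM37, with older symbols looked up among RefSeq synonyms (GRCm38.p6, names only); 4728 of 5266 deposited symbols (89.8%) matched, and 0 intervals passed the end of a chromosome. The deposited distance set membership. The members and lists were chosen with earlier results of these data known. Named genes were the up to 4 highest of each class, those nearest the distance limit, those with several intervals, and restricted isoforms with an interval; the others are given by value or count. Motif windows were taken at the GENCODE start, because the RefSeq promoter table held only 24 of the 33 genes. This was decided after the table had been seen, and the table was kept as an alternative setting. Shares carry exact Clopper-Pearson 95% intervals, no test was made, and the calculations used Python 3.11.15, scipy 1.17.1, pandas 2.3.3 and pysam 0.24.0, with the motif search tested on simulated data. Alternatives were other distances, higher or singly assigned intervals, annotation distances, RefSeq symbols and other motif windows. Some genes of the wider lists are not reported here.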

Additional observations from a re-analysis of the deposited data

How the results depend on the processing

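The shares depended on which intervals were counted. With intervals at or above the median height, the share was 8.47% of listed genes and 5.33% of all protein-coding genes, with 7.32% for the respiratory chain, 10.5% for the mitoribosome, 3.45% for its small subunit and 0% for complexes II, III and IV and the broad isoform counterparts. The median height became 28.5 and the CpG island share 100%. With intervals assigned to 1 gene, the direction turned, with 2.82% of listed genes and 4.87% of all protein-coding genes. The share was then 1.22% for the respiratory chain, 5.26% for the mitoribosome, 6.38% for its large and 3.45% for its small subunit, and 0% for complexes I, II, III and V, assembly factors and broad counterparts, with a median height of 16 and a CpG island share of 100%. Both settings count fewer intervals by construction. The share of all protein-coding genes was 9.58% at 500 bp, 11.9% at 2000 bp and 12.9% by GENCODE transcript starts. Under these 3 settings the shares of the listed genes and of each class stayed within the confidence intervals of their main values. The confidence interval of the respiratory chain included the background at 2000 bp (11.6 to 29.7) and by GENCODE starts (12.6 to 31.1). That of the mitoribosome included it by GENCODE starts (12.5 to 31.9), and that of complex I under all 3. That of all listed genes lay above it under all 3. With only summits near the start at which the class was read, added after seeing the data, the share at CpG-poor starts was 9.88% for listed genes and 3.64% for all genes, and at starts that were not divergent 16.9% for listed genes and 9.24% for all genes. RefSeq symbols as denominator gave 14 values, all within the confidence intervals of the main values.

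With only starts that had an LHX6 interval as the comparison, its shares were 15.4% for the NRF1 motif, 8.21% for the ETS motif, 3.24% for the YY1 motif, 45.9% for CCAAT, 67.7% for the SP motif, 4.23% for the CREB motif, 2.75% for TAATTA, 23.1% for TGATTG and 4.64% for TGATTA. Among the genes with an interval, TAATTA was in 0% of windows at summits and 0% in the RefSeq promoter table, a setting added after seeing the data, against 6.06% in start windows. CCAAT was in 45.8% (11 of 24) in that table, against 27.3% (9 of 33). The table thus covered fewer genes, with windows at RefSeq starts. Of the 2 genes with TAATTA in start windows, Atp5a1 was not in the table and Atp5j2 had 0 matches there. The cause of the change in CCAAT was not tested.

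With 1 library per group, leaving out a replicate was not possible. No paired analysis was possible because each group held 1 library. CpG island overlap at the summit was not run, since the table gives only a count per interval. Unknown depth limits the detection of low intervals, the scaling between LHX6 and input is not stated, the pooled tissue holds several cell types, and strandless fragments cannot be assigned to 1 gene of a divergent pair.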

Other observations

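Tall LHX6 intervals were also assigned to other genes of mitochondrial function, far from their starts. That assigned to Wars2, the mitochondrial tryptophanyl-tRNA synthetase gene, lay 32.2 kb from its start (chr3:98976735-98977674) and had a height of 75, above the 60 of the interval in Cox10. It overlapped no CpG island. That assigned to Suclg2, a gene for a subunit of succinyl-CoA ligase in the citric acid cycle, lay 110 kb from its start, had a height of 37 and overlapped no CpG island either. These genes were named after their values had been seen.

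The 33 genes were spread over 15 chromosomes, with 5 genes on chromosome 17 and 4 each on chromosomes 7 and 15. Of the 33, 7 also had an interval beyond 1000 bp.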
